A study of Mus musculus with 60 samples.

Results

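The question addressed here was which transcripts of the mouse cortex stood differently against undisturbed mice after 6 h of recovery sleep than at the end of sleep deprivation. The measure was a difference of differences, the recovery effect (RS6 minus CC11) minus the deprivation effect (SD minus CC6), on the log2 scale. It compared 28 of the 60 arrays of the series, 7 in each of 4 groups, within a fit of 59 arrays. It was computed for every expressed probeset without selecting probesets that responded to deprivation. A negative value means that a transcript stood lower against its controls after recovery than after deprivation, and a positive value that it stood higher.

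RS6 mice were sleep deprived for 5 h by gentle brushing, left to sleep for 6 h and killed at zeitgeber time (ZT) 11, that is, 11 h after lights on. CC11 mice were handled but undisturbed controls killed at ZT11. SD mice were deprived for 6 h and killed at ZT6, and CC6 mice were their undisturbed controls at ZT6. RS2 (6 h of deprivation, 2 h of recovery, 4 arrays), RS3 (5 h and 3 h, 7 arrays) and their control CC8 (7 arrays), all killed at ZT8, are given beside them for some genes. All mice were male C57BL/6J, 2 months old, housed singly and handled on each of the 6 days before the experiment, and each array held RNA from the left cortex of 1 mouse dissected by a single experimenter. Because RS6 mice were deprived 1 h less than SD mice, the length of deprivation and the recovery sleep cannot be told apart in this contrast.

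Sleep pressure builds up with time awake and is discharged during sleep. In the cortex, wakefulness raises immediate early genes, which neurons induce within minutes of synaptic activity, together with chaperones of the endoplasmic reticulum (ER), and many other transcripts fall as wakefulness is prolonged. A transcript that is displaced by wakefulness can return to its undisturbed level during sleep, stay displaced or pass beyond that level, and time of day moves the undisturbed level itself.

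Values are log2 RMA intensities from Affymetrix Mouse Gene 2.1 ST arrays, and every effect below is a fitted log2 difference after removal of 6 factors of unwanted variation (RUV). A probeset was called at a Benjamini-Hochberg false discovery rate (FDR) under 0.01 in limma, adjusted over all 32819 of 41345 probesets that exceeded log2 4 in more than 50% of the 59 arrays. Between 78.6% and 80.6% of all probesets exceeded that level in each of the 28 arrays. SD replicates 1 and 2 and RS6 replicate 1 stood apart on the leading principal component of the RMA values (scores of -135.9, -51.1 and -42.7, against -4.82 to 21.6 in the other 25 arrays), and the same 3 arrays had the highest mean of small nucleolar RNA probesets (9.21, 8.75 and 8.61). A fit without these 3 arrays and without CC0 replicate 1 and CC8 replicate 1, chosen after seeing the data, called 350 probesets, of which 265 were shared with the full fit. Below it is called the fit without the 5 arrays, and a gene that lost its call in it is said to have done so.

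The markers could not check the tissue label, because only probesets that passed the log2 4 filter counted as measured. All 12 measured excitatory neuron markers exceeded log2 4 in every group, but so did all measured striatum and choroid plexus markers. None of the 12 was called in limma (1 at an unadjusted p under 0.05, beside 3352 of all 18386 genes). The striatum lies beneath the cortex, and the mean of 11 striatum markers spread widely, from 7.60 to 8.98 in RS6, 8.23 to 8.90 in CC11, 7.54 to 8.46 in SD and 7.73 to 8.73 in CC6 arrays. None of the 11 was called in limma (0 at an unadjusted p under 0.05), with a median contrast of -0.13. Their median recovery effect was -0.42, their median deprivation effect -0.22 and their median change between the control groups (CC11 minus CC6) 0.48, beside 0.01, 0.00 and -0.01 over all genes, and the part of striatal tissue in the recovery effects and control changes of single genes below was not tested. The count of calls was 351 with their mean as a covariate, also chosen after seeing the data. In bulk tissue, fewer cells of a type and less RNA per cell cannot be told apart.

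The contrast called 338 probesets (1.03% of those tested), 160 lower (0.488%) and 178 higher (0.542%) after recovery than after deprivation. Without RUV factors 41 probesets were called (0.125%), 27 lower and 14 higher, all of them among the 338. Among the called genes named below, those also called without RUV were Arc, Egr1, Nr4a3, Homer1, Bhlhe40, Sik1, Rasd1, Irs2, Trib2, Serinc2, Cdkn1a, Dusp5, Dusp6, Spred2, Sdf2l1, Dnajb5, Nostrin, Hunk, Rasl11b, Pla2g4e, Asb11, Bace2, Nrep, 1700001L05Rik and 9330104G04Rik, and the others lost their calls. In a fit of the 28 arrays alone without RUV there were 24 calls (20 lower, 4 higher), and with 6 factors estimated in those arrays 137 (84 lower, 53 higher), so the split between directions depended on the factors. The direction of the contrast was the same without RUV for 159 of the 160 lower and all 178 higher probesets. An unadjusted p under 0.05 was met by 4872 probesets with RUV and 2877 without. Effects were modest: 62 of the lower and 30 of the higher probesets differed by more than 0.5 on the log2 scale, and 4 and 1 by more than 1. The lower calls named 142 genes and the higher calls 157, and no gene had more than 1 called probeset.

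**Figure D1:**
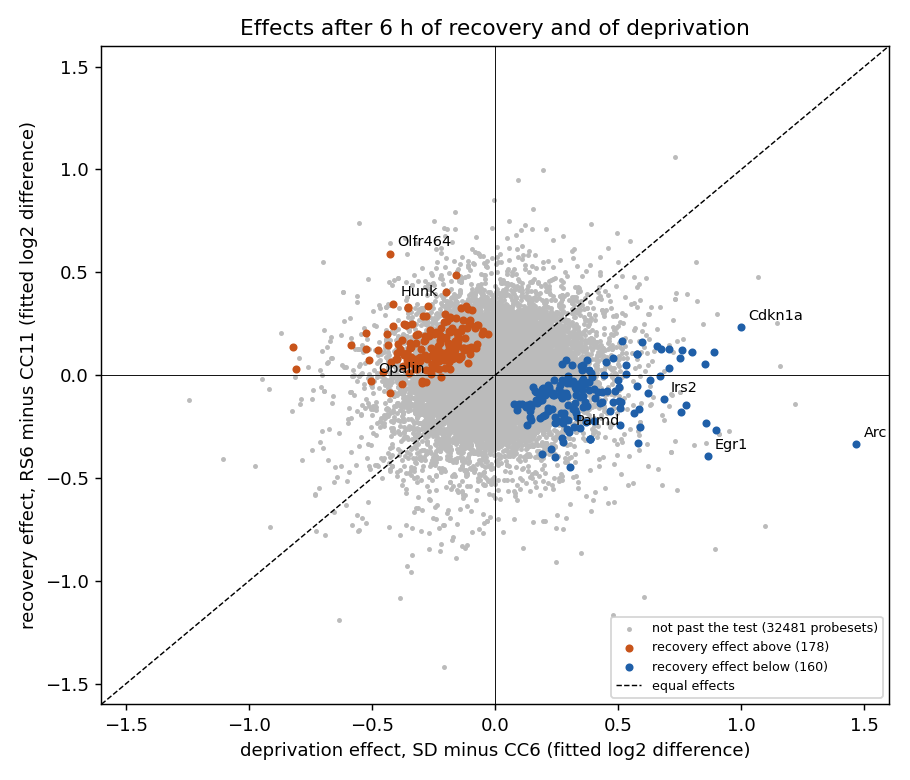
Recovery effect (RS6 minus CC11, vertical axis) against deprivation effect (SD minus CC6, horizontal axis), both fitted log2 differences, for 32819 probesets; the dashed line marks equal effects, and grey points were not called. The 160 lower calls lie right of 0 and the 178 higher calls left of it, while most of both sets lie near 0 on the vertical axis.

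All 160 lower calls had a deprivation effect above 0 and all 178 higher calls one below 0. The median recovery effect of the lower calls was -0.10 and their median deprivation effect 0.33, and for the higher calls the values were 0.13 and -0.23. Recovery effects had the opposite sign to the deprivation effect in 133 lower and 171 higher calls, 89.9% of the 338, beside 47.8% of all probesets tested. Both effects enter the contrast, so these signs describe the called set and are not a separate test. The recovery effect was larger in size than the deprivation effect in 20 lower and 47 higher calls. Across all 32819 probesets the 2 effects correlated at r = 0.086 with RUV and 0.36 without, a description over probesets that share arrays and factors.

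Most calls carried a deprivation effect that was itself called: 123 of the 160 lower and 101 of the 178 higher, together 66.3% of the 338 and 35.3% of the 634 probesets called for deprivation (1.93% of those tested; 1.09% above and 0.844% below the control). Only 15 of the 338 were among the 49 called for recovery (0.149%; 0.119% above and 0.0305% below the control), 3 lower and 12 higher. The remaining 102 (30.2%; 36 lower, 66 higher) passed in neither comparison. Smad3, a transducer of TGF-beta signals, was one, with a recovery effect of -0.33, a deprivation effect of 0.27 and a contrast of -0.60 (adjusted p = 0.00014, or 0.0104 without RUV), chosen here after its values were seen. In the RMA values, the 7 SD arrays lay above all 7 CC6 arrays for 73 of the 160 lower calls (background 0.905% of probesets), and below them for 59 of the 178 higher calls (background 0.698%). The RS6 arrays lay wholly below the CC11 arrays for 5 lower calls (background 0.165%) and wholly above for 5 higher calls (background 0.216%). The calls were selected with these same arrays, so the counts in this paragraph describe the called set and are no separate test.

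Among called probesets with 1 gene symbol, those with the 4 largest negative contrasts are genes known to be induced by neuronal activity. Arc, which encodes a cytoskeletal protein of active synapses that promotes removal of AMPA receptors, had the largest negative contrast among those called. Its lowest, median and highest log2 values were 7.75, 8.09 and 8.94 in RS6 and 8.00, 8.37 and 8.85 in CC11 mice, and 10.06, 10.26 and 10.93 in SD and 8.15, 8.43 and 9.71 in CC6 mice. All 7 SD mice lay above every CC6 mouse and every RS6 mouse, whereas the RS6 and CC11 ranges overlapped. The contrast was -1.80 ± 0.35 (SE), 3.49-fold lower (adjusted p = 0.0011). The recovery effect was -0.34 ± 0.25 (adjusted p = 0.58) and the deprivation effect 1.47 ± 0.25.

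Egr1, a zinc finger transcription factor induced by activity, had a contrast of -1.26 ± 0.18 (2.39-fold lower, adjusted p = 2.0e-05). RS6 mice had 8.47, 8.58 and 9.15 and CC11 mice 8.67, 8.96 and 9.04 as lowest, median and highest values, and SD mice had 9.77, 9.91 and 10.56 and CC6 mice 8.45, 8.76 and 9.66. In all, 5 of the 7 RS6 mice lay below every CC11 mouse. Its recovery effect was -0.39 (adjusted p = 0.12), which did not pass. The orphan nuclear receptor genes Nr4a1 (-1.16 ± 0.25) and Nr4a3 (-0.84 ± 0.14) and the Egr1 relative Egr2 (-1.09 ± 0.23) were lower too. The call of Egr2 was lost without SD replicate 3 (-0.995, adjusted p = 0.0105), and that of Nr4a1 without any of RS6 replicate 6, CC11 replicates 4 and 5 and CC6 replicates 5 and 7 (-1.12 to -1.09, adjusted p at most 0.0117), and without the 5 arrays that stood apart (adjusted p = 0.011).

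The gene lists here and below were drawn up with earlier results of these data known, so their shares are descriptions and no separate test. Among the 37 listed immediate early genes, 15 were lower and none was higher (40.5%, beside 1.62% of all 18386 genes), with a median contrast of -0.46 beside 0.01 over all genes. Without RUV 5 of them were called. Homer1, a scaffold of the postsynaptic density, differed by -0.75 ± 0.09, and 4 of 7 RS6 mice lay below every CC11 mouse (9.09, 9.38 and 9.60 in RS6, against 9.50, 9.67 and 9.79 in CC11). Fosb (-0.69), Egr4 (-0.56), Ier5 (-0.53) and Pcsk1, the prohormone convertase (-0.39), were lower in all 28 fits that each left out 1 array. Fosb lost its call without the 5 arrays (adjusted p = 0.026), and Klf10 (-0.63) was called in 12 and Fosl2 (-0.51) in 5 of the 28 fits. Fos itself had a contrast of -1.15 that did not pass (adjusted p = 0.025), and Junb (-0.72, adjusted p = 0.044), Npas4 (-0.68, adjusted p = 0.072) and Egr3 (-0.46, adjusted p = 0.044) did not either.

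Some genes stood above their controls after recovery as well. These calls rested on the processing: of the 49 recovery calls, 34 were kept without the 5 arrays and 0 without RUV. Of 11 probesets called in both the deprivation and the recovery comparison, 8 were above the control in both, and none of these 8 was called in the contrast. Choosing probesets with the same sign in both favours a small contrast, so the lack of calls is no separate test. The 8 were Cbln4 and Cbln2, secreted synaptic organizers, Nptx2, a pentraxin that clusters AMPA receptors, the serotonin receptor gene Htr2a, the stress peptide gene Crh, the ER chaperone gene Hsp90b1, the protease gene Htra1 and the potassium channel gene Kcnk1. Nptx2 had a recovery effect of 0.44 and a deprivation effect of 0.58, a contrast of -0.14 (95% interval -0.37 to 0.08). Htr2a had 0.43 and 0.27, a contrast of 0.16 (-0.01 to 0.34), and Cbln4 had 0.40 and 0.73, a contrast of -0.33 (-0.51 to -0.16) that missed the threshold (adjusted p = 0.022). Bdnf, the neurotrophin gene, had 0.23 (adjusted p = 0.051) and 0.48, and its contrast of -0.24 was not called (adjusted p = 0.14).

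Inhibitors of mitogen-activated protein kinase (MAPK) signalling, which activity induces as feedback, were lower in 7 of 18 measured genes and higher in 1 (44.4%, beside 1.62% of all genes; median -0.14). The ERK phosphatase gene Dusp5 had lowest, median and highest values of 6.59, 6.69 and 7.04 in RS6 and 6.23, 6.60 and 6.74 in CC11 mice, and of 7.46, 7.59 and 7.87 in SD and 6.48, 6.61 and 6.96 in CC6 mice. SD mice stood clear of the other 3 groups, and the contrast was -0.78 ± 0.14 (adjusted p = 0.00045). The phosphatase genes Dusp6 (-0.67) and Dusp4 (-0.67), and the Sprouty-related inhibitor genes Spry4 (-0.63), Spred2 (-0.51), Spred3 (-0.44) and Spred1 (-0.27), were lower as well. In Spred2, 6 of 7 RS6 mice lay below every CC11 mouse (9.35, 9.41 and 9.52 in RS6, against 9.46, 9.55 and 9.69 in CC11), with a recovery effect of -0.15 (adjusted p = 0.19). Dusp16, a phosphatase of the JNK and p38 kinases, was higher (0.34, adjusted p = 0.0075) in the 59-array fit but in only 12 of 28 fits without 1 array, and not without the 5 arrays (adjusted p = 0.013). Spred3 was called in 21 of those 28 fits, and Spred1 in all but those without RS6 replicate 4, CC11 replicate 1, SD replicate 7 or CC6 replicate 6 (-0.26 to -0.25, adjusted p at most 0.0124).

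Signalling genes were also among the 15 largest negative contrasts. Irs2, the insulin receptor substrate, had 8.08, 8.21 and 8.44 in RS6, 8.10, 8.31 and 8.46 in CC11, 8.79, 8.94 and 9.17 in SD and 8.04, 8.23 and 8.43 in CC6 mice. The SD mice did not overlap any other group, and the contrast of -0.80 ± 0.10 (adjusted p = 6.0e-07) was called in every alternative run. Trib2, a pseudokinase (-0.75 ± 0.09), Sik1, a salt-inducible kinase (-0.94 ± 0.15), Rasd1, a Ras-related protein induced by dexamethasone (-0.92 ± 0.14), and Serinc2, a serine incorporator (-0.80 ± 0.15), also had their highest median in SD. Cdkn1a, the cell cycle inhibitor p21, had the largest deprivation effect after Arc among these 15 genes (1.00) and a contrast of -0.77 ± 0.12. All 7 of its RS6 values lay above the CC11 median and 5 above every CC11 mouse (7.68, 7.86 and 8.09 in RS6, against 7.32, 7.61 and 7.82 in CC11), with a recovery effect of 0.23 (adjusted p = 0.18).

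**Figure D2:**
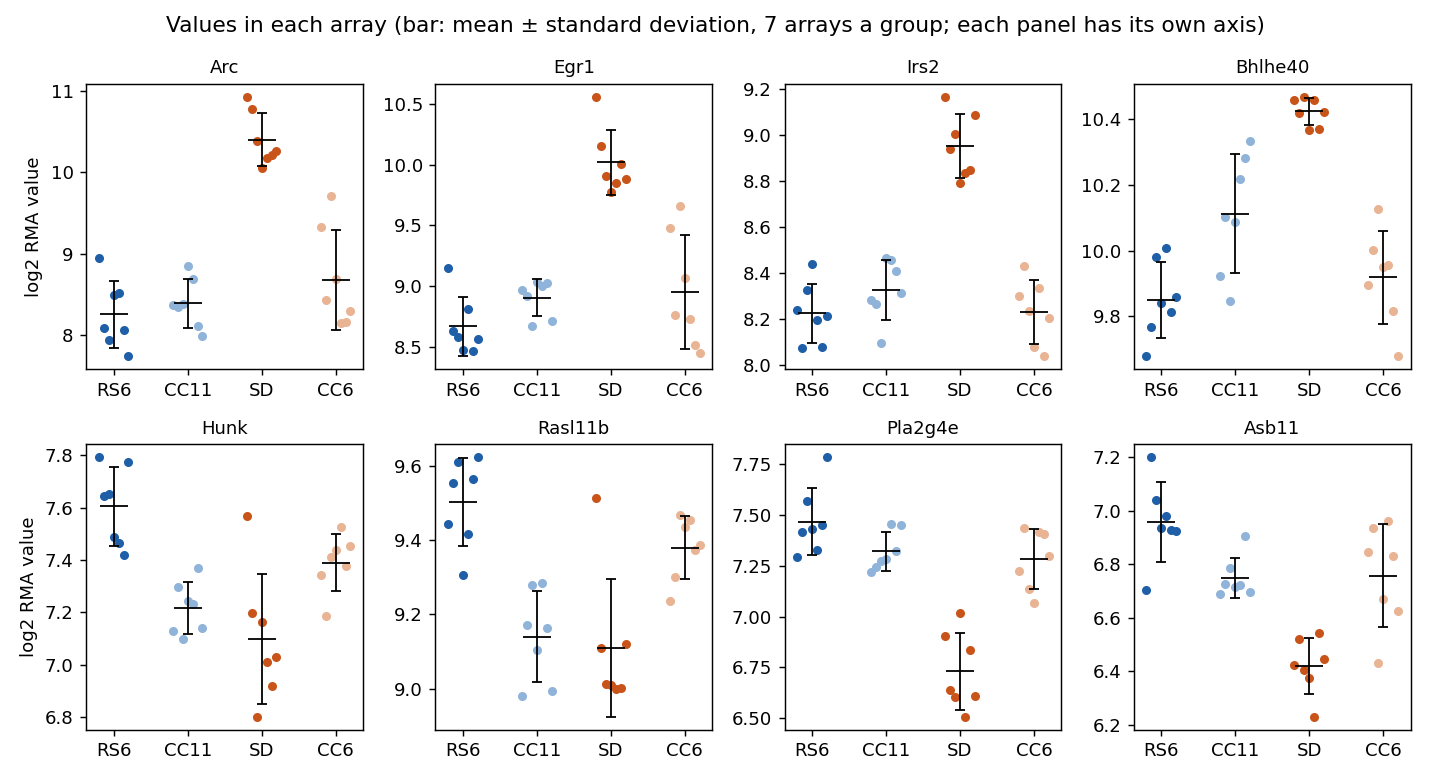
Log2 RMA value in each array for 8 genes, with the mean and standard deviation of the 7 arrays of a group. SD mice are set apart from the other 3 groups for Irs2 and Bhlhe40, and RS6 mice lie above all CC11 mice for Hunk and Rasl11b.

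ER chaperones and genes of the unfolded protein response, which restores folding capacity in the secretory pathway, were lower in 6 of 30 measured genes and higher in none (20%, beside 1.62% of all genes; median -0.10). Sdf2l1, a component of an ER chaperone complex, had 6.71, 6.94 and 6.97 in RS6 and 6.80, 6.89 and 7.14 in CC11 mice, and 7.37, 7.75 and 8.21 in SD and 6.80, 7.08 and 7.28 in CC6 mice. All SD mice were above every mouse of the other 3 groups, and the contrast was -0.71 ± 0.11 (adjusted p = 5.5e-05). Xbp1, the transcription factor of this response (-0.51), Hspa5, the chief ER chaperone BiP (-0.39), Dnajc3 (-0.38), Creld2 (-0.36) and the disulfide isomerase gene Pdia6 (-0.33) followed. Without RUV the call was kept for Sdf2l1 alone, Hspa5 lost its call without SD replicate 3 (-0.32, adjusted p = 0.0105), and Pdia6 without SD replicate 3 (-0.28, adjusted p = 0.020) or CC11 replicate 4 (-0.30, adjusted p = 0.012). Hsp90b1, from the same list, had a contrast of -0.05 (adjusted p = 0.69; 95% interval -0.16 to 0.05).

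Promoters of 4 of these 6 genes are shown because they hold a motif of the response, the ER stress element. The windows of the other 2, Sdf2l1 and Xbp1, do not hold it, although their contrasts were the largest of the list. RefSeq promoter windows (mouse build GRCm38.p6, 250 bases before to 50 after each start) were matched for 105 of the 142 lower and 134 of the 157 higher genes. The element, ccaat and ccacg with 9 bases between them, searched on either strand, was in 4 lower genes (3.81%), in none of the higher ones and in 23 of 14121 genes tested with a window (0.163%). All 4, Hspa5, Creld2, Dnajc3 and Pdia6, are on the ER list, where 9 of 26 genes with a window held the element. The other 5 were Derl3 (contrast -0.38, adjusted p = 0.15), Hsp90b1, Syvn1, Calr and Canx, and none of them was called. A match is a description of the sequence. Each stretch is 80 bases long and lies before the start, 5′ to 3′ on the gene's strand, here the plus strand for all, and capitals mark the motif, which stands reverse-complemented in Creld2.
Hspa5, chr2:34771994-34772073: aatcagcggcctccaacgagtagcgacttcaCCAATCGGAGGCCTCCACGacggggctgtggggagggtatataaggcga
Creld2, chr15:88819489-88819568: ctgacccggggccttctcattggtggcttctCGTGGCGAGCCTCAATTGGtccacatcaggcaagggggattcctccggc
Dnajc3, chr14:118937796-118937875: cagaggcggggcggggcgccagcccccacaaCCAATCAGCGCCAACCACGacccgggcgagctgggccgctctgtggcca
Pdia6, chr12:17266460-17266539: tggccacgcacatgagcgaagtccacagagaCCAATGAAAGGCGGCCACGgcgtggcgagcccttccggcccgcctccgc

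The CArG box, known to be bound by serum response factor in many immediate early promoters, was in 3 of 105 lower genes (2.86%; Dusp5, Egr2 and Ranbp2), in none of the higher ones and in 1.58% of all 14121. The cAMP response element TGACGTCA was in 2.86%, 2.99% and 3.02%, and the E-box CACGTG in 11.4%, 8.96% and 10.3% of lower, higher and all genes. The shorter core TGACG, which the full cAMP response element contains, was in 40.0%, 28.4% and 30.1%. Dusp5 is shown because 2 CArG boxes adjoin each other before its start.
Dusp5, chr19:53529032-53529111: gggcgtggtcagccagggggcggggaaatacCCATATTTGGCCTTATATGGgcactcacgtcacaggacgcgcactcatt

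The clock list had 2 of 19 genes lower and none higher (10.5%, beside 1.62% of all genes). Bhlhe40, a repressor of the circadian clock that activity also induces, had 9.68, 9.84 and 10.01 in RS6, 9.85, 10.10 and 10.34 in CC11, 10.37, 10.42 and 10.47 in SD and 9.68, 9.95 and 10.13 in CC6 mice. RS6 was the lowest group by median and SD the highest without overlap, and the contrast was -0.75 ± 0.09 (adjusted p = 2.6e-07). Its recovery effect of -0.24 (adjusted p = 0.038) did not pass, and the RS2 and RS3 effects were -0.22 and -0.41. Per1, a core clock repressor, had a contrast of -0.63 ± 0.10, and the controls changed more in size than the deprived mice: RS6 stood 0.23 below SD, and CC11 0.39 above CC6. Dbp, Arntl and Npas2, other clock or clock output genes, had contrasts of 0.12, -0.01 and -0.09 (adjusted p = 0.68, 0.97 and 0.46), although Dbp had a deprivation effect of -0.40. For Arntl, the sign of this near-zero value changed with the processing.

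The same contrast can be written as the change between the deprived groups (RS6 minus SD) minus the change between the controls (CC11 minus CC6). Of the 338 probesets, 255 were called in the change between deprived groups (2.81% of all tested; 1.33% higher and 1.48% lower in RS6), 11 in the change between controls (0.265%) and 73 in neither. The controls changed more in size than the deprived mice in 46 (13.6%), 15 lower and 31 higher. Among those, the genes named next were chosen after their values were seen. Nostrin, a trafficking adaptor of endothelial nitric oxide synthase, had 5.93, 6.08 and 6.42 in RS6, 6.12, 6.40 and 6.52 in CC11, 6.28, 6.38 and 6.48 in SD and 5.53, 5.93 and 6.24 in CC6 mice. CC6 was lowest and CC11 and SD alike in their medians, and the contrast of -0.64 ± 0.12 combined a change of -0.22 between deprived groups with one of 0.42 between controls. Dexi, induced by dexamethasone, had -0.12 and 0.45, and Tsc22d3, the glucocorticoid-induced leucine zipper GILZ, -0.22 and 0.31. Dexi lost its call without CC11 replicate 7 or SD replicate 6 (-0.52 and -0.53, adjusted p = 0.01001 and 0.0113). Without RUV, Dexi (adjusted p = 0.12), Tsc22d3 (0.034) and Per1 (0.015) were not called.

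Of 22 listed glucocorticoid-responsive genes, 3 were lower (Cdkn1a, Per1 and Tsc22d3; 13.6%, beside 1.62% of all genes) and none higher, 20 of 22 contrasts were below 0 (median -0.18), and the median change between controls was 0.20, beside -0.01 over all genes. Hif3a (0.55), Sgk1 (0.54), Fkbp5 (0.30) and Nfkbia (0.31) had positive changes between controls with contrasts of -0.36, -0.24, -0.26 and -0.17 that were not called. On the positive side, the muscarinic receptor gene Chrm3 (contrast 0.45) had a change of 0.14 between deprived groups and -0.31 between controls, and the adenylate cyclase gene Adcy2 (0.21) had 0.01 and -0.20. Neither was called without RUV (adjusted p = 0.015 and 0.091).

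**Figure D3:**
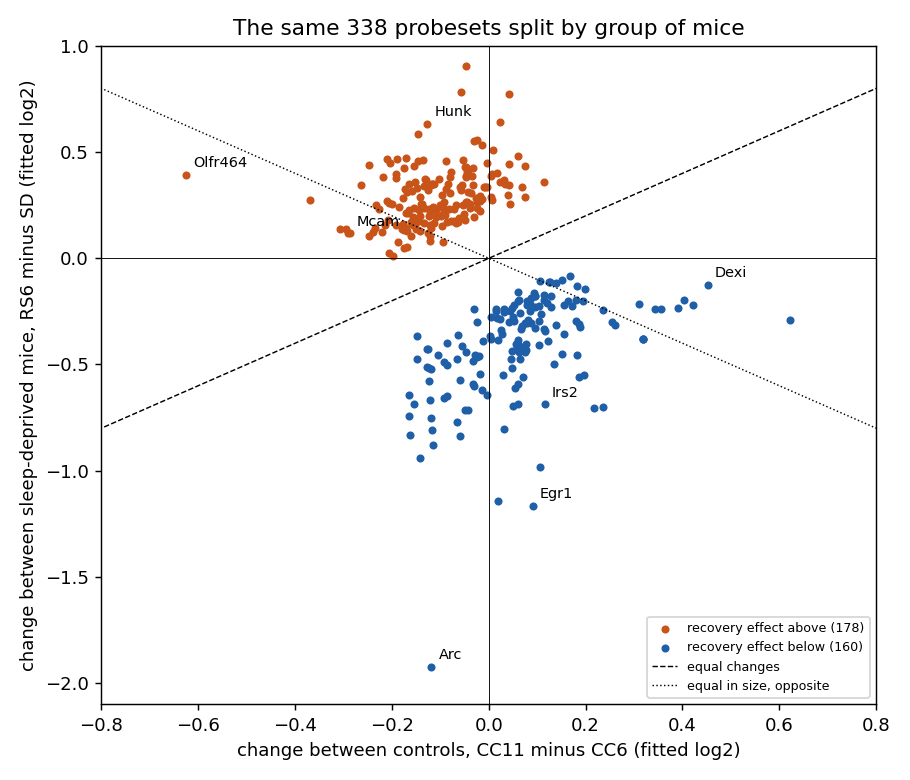
Change between sleep-deprived groups (RS6 minus SD, vertical axis) against change between controls (CC11 minus CC6, horizontal axis), fitted log2 differences, for the called probesets. Arc, Egr1 and Irs2 lie far from 0 mainly on the vertical axis, and Dexi, Mcam and Olfr464 lie nearer the horizontal axis, beyond the dotted line where the controls changed more.

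The largest positive contrasts came from genes of varied function and were smaller in size. Hunk, a kinase of the AMPK-related family, had lowest, median and highest values of 7.42, 7.64 and 7.79 in RS6 and 7.10, 7.23 and 7.37 in CC11 mice, and of 6.80, 7.03 and 7.57 in SD and 7.18, 7.41 and 7.52 in CC6 mice. Every RS6 mouse lay above every CC11 mouse, while 5 of 7 SD mice lay below every CC6 mouse, and 1 SD mouse, replicate 1, lay above them. The contrast was 0.76 ± 0.11 (1.70-fold, adjusted p = 1.0e-05), made of a recovery effect of 0.35 (adjusted p = 0.016) and a deprivation effect of -0.41.

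Rasl11b, a small Ras-like GTPase, was the single higher call that passed in both comparisons, with a recovery effect of 0.33 and a deprivation effect of -0.35 (adjusted p = 0.0092 and 0.00070). Its recovery effect, like every other, was not called without RUV. All 7 RS6 mice lay above all CC11 mice (9.31, 9.56 and 9.62 in RS6, against 8.98, 9.16 and 9.28 in CC11), and 6 of 7 SD mice lay below all CC6 mice (9.0, 9.01 and 9.51 in SD, against 9.24, 9.39 and 9.47 in CC6). On the negative side 2 probesets passed in both as well. The first carries 2 gene symbols, with a recovery effect of -0.33 and a deprivation effect of 0.58. Its contrast was -0.91 (adjusted p = 1.4e-10, or 9.0e-07 without RUV), from a change of -0.29 between deprived groups and 0.62 between controls. The second was Palmd, which encodes paralemmin-like palmdelphin, at -0.28 and 0.30 (contrast -0.58). Its SD values spread from 7.52 to 9.05, with 2 of 7 SD mice below every CC6 mouse and 5 above, and the contrast was not called without RUV (adjusted p = 0.42).

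Pla2g4e, a cytosolic phospholipase that makes N-acyl phosphatidylethanolamines, had 7.29, 7.43 and 7.78 in RS6 and 7.22, 7.28 and 7.45 in CC11 mice, against 6.51, 6.64 and 7.02 in SD and 7.07, 7.30 and 7.44 in CC6 mice. SD lay below the other 3 groups without overlap, and the contrast was 0.73 ± 0.12 (adjusted p = 8.1e-05). The ubiquitin ligase adaptor gene Asb11 (0.58), the beta-secretase homologue gene Bace2 (0.58), the protocadherin gene Pcdh20 (0.60) and Nrep, linked to nerve regeneration (0.61), were higher in all 28 fits without 1 array. Ighm (0.60) and Rassf3 (0.59) were not called without RUV (adjusted p = 0.20 and 0.095). Olfr464, an olfactory receptor gene, had the largest called value (1.02 ± 0.19), with wide ranges in all 4 groups (5.35 to 6.96 in RS6, 5.48 to 6.18 in CC11, 5.44 to 6.38 in SD, 5.97 to 6.90 in CC6). Its change between controls was -0.63, and without RUV it was not called (adjusted p = 0.059).

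Edn1, which encodes the vasoconstrictor endothelin-1, had 6.65, 6.86 and 6.99 in RS6, 6.38, 6.58 and 6.74 in CC11, 5.62, 6.20 and 6.36 in SD and 6.33, 6.53 and 6.84 in CC6 mice. In all, 5 RS6 mice lay above all CC11 mice and 6 SD mice below all CC6 mice, but the contrast of 0.62 ± 0.14 (adjusted p = 0.0077) was called in 12 of 28 fits without 1 array and not without the 5 arrays that stood apart (adjusted p = 0.021). Cd34 (0.51), Lama4, a laminin chain of vessel walls (0.48), Mcam (0.40), Arhgap29 (0.37) and Adgrf5 (0.32), genes known from blood vessels and chosen after their values were seen, were also higher. Nostrin, the adaptor of endothelial nitric oxide synthase named above, was lower (-0.64). In Mcam the deprived groups changed by 0.12 and the controls by -0.29, beside 0.64 and 0.02 in Edn1. None of the 12 endothelial markers was called in limma (4 at an unadjusted p under 0.05, beside 3352 of all 18386 genes), with a median contrast of 0.16. Their mean level was 8.05 to 8.29 in RS6, 8.03 to 8.23 in CC11, 7.29 to 8.27 in SD and 8.05 to 8.24 in CC6 arrays, and the part of vessel content in these results was not tested.

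Other lists held few calls, in 1.69% to 11.1% of their members where any was called, beside 1.62% of all genes. Of 45 ubiquitin-specific protease genes 2 were higher, Usp2 (0.36 ± 0.06) and Usp28 (0.35 ± 0.07), and all 7 SD mice lay below all CC6 mice for both. Usp2 had 9.73, 9.83 and 10.03 in RS6 and 9.67, 9.77 and 9.80 in CC11, and 9.36, 9.45 and 9.62 in SD and 9.63, 9.69 and 9.74 in CC6. Usp28 lost its call without the 5 arrays (adjusted p = 0.020). Of 21 synaptic adhesion genes 2, Slitrk4 (0.38) and Slitrk2 (0.31), and 1 of 22 cholesterol genes, the sterol sensor Insig1 (0.39), were higher. Nlgn1, the neuroligin of excitatory synapses, had a contrast of 0.17 (adjusted p = 0.037). Slitrk2 was not called without RS6 replicate 2 or 3, CC11 replicate 6 or 7 or SD replicate 4 (0.28 to 0.30, adjusted p at most 0.0126), nor without the 5 arrays (adjusted p = 0.013).

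Of 45 splicing regulators, Tra2a (-0.56) and Srsf2 (-0.21) were lower and Hnrnpdl (0.28) higher, and the paraspeckle protein gene Sfpq was lower (-0.45, 1 of 9 on its list). Of 20 cytosolic heat shock or cold-inducible genes, Dnajb5 (-0.65) and Chordc1 (-0.31) were lower, while cold-inducible Cirbp had 0.47 without passing (adjusted p = 0.025). Of 28 histone deacetylases and corepressors, Nab2, a corepressor of Egr1, was lower (-0.51) and Hdac9, a class IIa histone deacetylase, was higher (0.25). They were called in 23 and 11 of 28 fits without 1 array, and Sin3a, a corepressor scaffold, had 0.16 (adjusted p = 0.052). Srsf2 was called in 15 of those fits, and Chordc1 in 25, all but those without RS6 replicate 1, SD replicate 3 or SD replicate 7 (-0.28 to -0.27, adjusted p at most 0.0163). Both lost their calls without the 5 arrays (adjusted p = 0.017 and 0.018). Among 59 ribosomal protein genes, Rps3 was higher (0.26; lost without CC11 replicate 7 or SD replicate 6, at 0.24 in both) and the median was 0.10, or 0.03 without RUV. None of 51 translation factors was called in limma (16 at an unadjusted p under 0.05), Eif3f at 0.22 (adjusted p = 0.044) included, and none of 22 neuropeptides or granins (4 at an unadjusted p under 0.05). Over all 18386 genes, 3352 had an unadjusted limma p under 0.05. The long RNA Neat1 had 0.35 (adjusted p = 0.048), with a recovery effect of 0.44, called with RUV but not without, and a deprivation effect of 0.09.

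**Figure D4:**
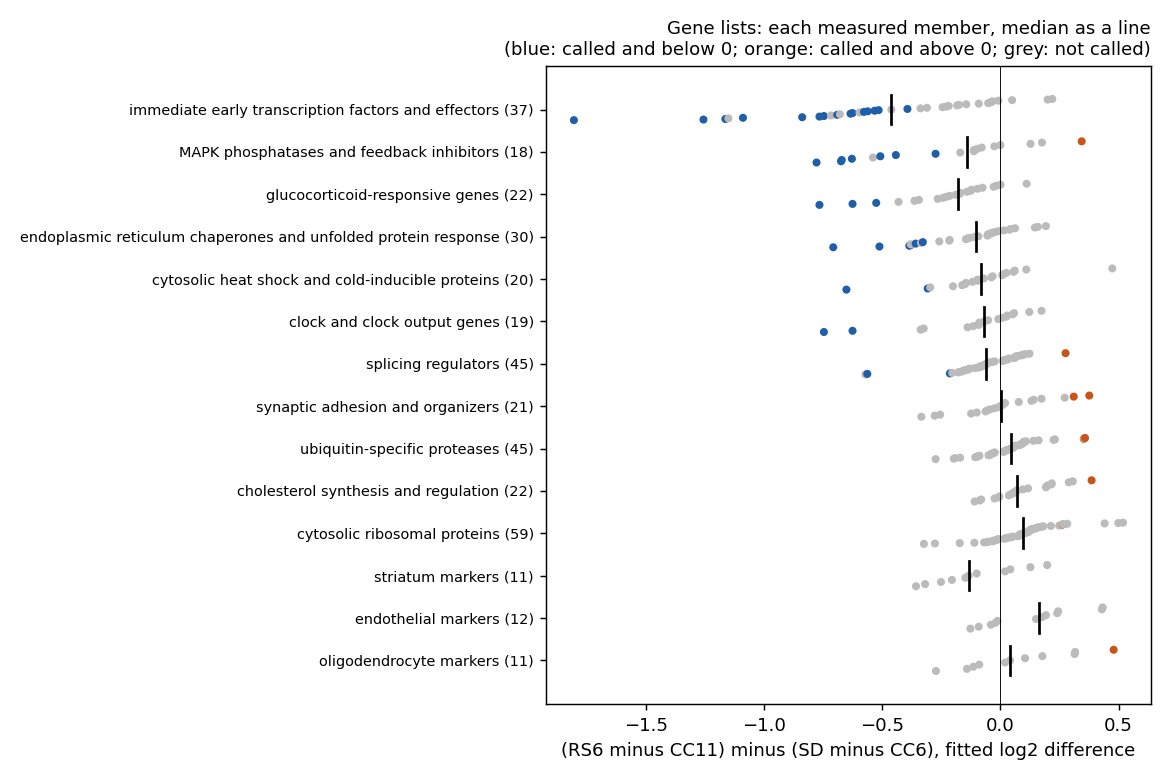
The contrast for each measured member of 14 gene lists (1 probeset a gene, number of members in brackets), with the median as a black line. The calls below 0 are most frequent in the immediate early, MAPK feedback and ER lists. They are fewer in the glucocorticoid, clock, heat shock and splicing lists, and the striatum and endothelial markers hold no call.

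Among cell type markers, 1 of 11 oligodendrocyte genes was called (9.09%, beside 1.62% of all genes). Opalin, a glycoprotein of myelin, had 7.45, 7.54 and 7.64 in RS6 and 7.36, 7.58 and 7.68 in CC11 mice, and 7.19, 7.25 and 7.33 in SD and 7.65, 7.73 and 7.86 in CC6 mice. SD mice lay below the other 3 groups without overlap, and the contrast was 0.48 ± 0.09 (adjusted p = 0.0010). The other 10 oligodendrocyte genes were not called, Mog at 0.31 (adjusted p = 0.023) and Mbp at -0.11 (adjusted p = 0.34) among them. Of all 11, 6 had an unadjusted limma p under 0.05, beside 3352 of all 18386 genes. The mean of the 11 ranged from 9.22 to 9.41 in RS6, 9.33 to 9.42 in CC11, 8.84 to 9.39 in SD and 9.34 to 9.42 in CC6 arrays. No marker of excitatory or inhibitory neurons, astrocytes, microglia, oligodendrocyte precursors, pericytes or choroid plexus was called in limma (at an unadjusted p under 0.05, 1, 2, 1, 3, 2, 0 and 0 of them).

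The RS2, RS3 and CC8 mice are not in the 4 groups of the contrast. Their arrays entered the same fit and its RUV factors, so their effects are not independent of the calls. In these mice, 76.9% of the 160 lower calls had a 2 h effect above 0 and 62.5% a 3 h effect above 0, beside 52.0% and 53.8% of all probesets. Of the 178 higher calls, 28.7% and 35.4% were above 0. Medians were 0.11 at 2 h and 0.05 at 3 h for the lower calls, and -0.05 and -0.04 for the higher calls. Of the lower and higher calls, 21 and 7 were called at 2 h (0.299% of all probesets) and 3 and 4 at 3 h (0.171%). The 2 h and 3 h effects share the CC8 mice and differ in the length of deprivation. Sdf2l1 had effects of 0.62 in SD, 0.47 in RS2, 0.20 in RS3 and -0.09 in RS6, and Hspa5 0.45, 0.29, 0.18 and 0.07. Arc was below its control in all 3 recovery groups (-0.32, -0.30 and -0.34), none past the test, and Irs2 had 0.68, 0.16, 0.06 and -0.12. Opalin had -0.51, -0.34, -0.27 and -0.03. Hunk was above its control at 0.27, 0.38 and 0.35 in RS2, RS3 and RS6, whereas Rasl11b was near 0 in RS2 and RS3 and at 0.33 in RS6.

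**Figure D5:**
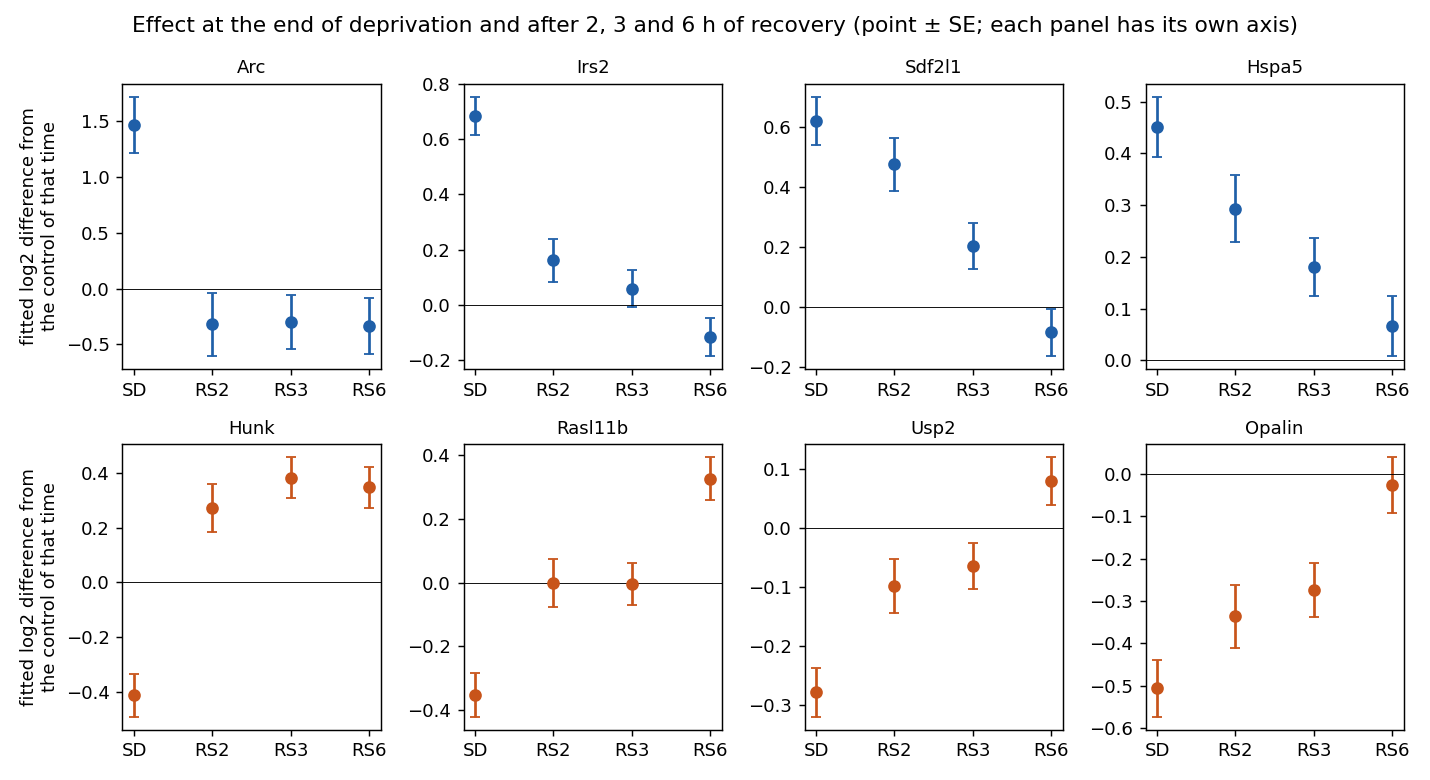
Fitted log2 difference from the time-matched control (point, with its standard error) in SD, RS2, RS3 and RS6 for 8 genes; each panel has its own vertical axis. Sdf2l1 and Hspa5 lie above 0 in SD and RS2 and near 0 in RS6, Arc lies below 0 in every recovery group, and Rasl11b lies above 0 in RS6 and near it in RS2 and RS3.

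Size alone did not decide a call. Of the 10 probesets at the ends of the whole ranking, 1 was called, Arc. The other 9, which carry no gene symbol, had contrasts between -1.83 and 1.29 with standard errors of 0.40 to 0.98 and adjusted p of 0.035 to 0.49, beside a median standard error of 0.12 over all probesets. The called probesets were brighter than the rest, with median log2 levels of 8.63 for the lower and 8.46 for the higher calls, beside 6.33 for all tested.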

How the data were processed

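Cortex RNA of single mice was hybridised to Affymetrix Mouse Gene 2.1 ST arrays. The deposited values are log2 intensities that the authors computed with RMA. Whether factors of unwanted variation had been removed from them is not given in the sources used here. Of 60 arrays, 59 entered the fit, and 1, whose title and description name different groups, was left out. Replicates were separate mice, and their number limits the precision. Probesets over log2 4 in more than 50% of arrays were kept. A linear model of 9 groups and 6 RUVs factors, estimated with all kept probesets as controls, was fitted in limma 3.58.1 (R 4.3.3), with 44 residual degrees of freedom, moderated errors and Benjamini-Hochberg adjustment over all kept probesets. The recovery and deprivation effects compare groups without shared arrays, within the same fit. Gene symbols came from the platform annotation, by which 19494 kept probesets had 1 symbol, 1445 several and 11880 none. Gene lists used the brightest probeset of a gene. Named genes were the 15 largest called contrasts with 1 symbol in each direction, called list members, the 5 probesets at each end of the ranking, and genes the study names; others are marked. The members and lists were chosen with earlier results of these data known. Alternatives changed the factors, arrays, filter, normalization, weights and replicate block. The fit was tested on simulated data.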

Additional observations from a re-analysis of the deposited data

Results flagged for a closer look

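The 30 genes here have the 15 largest called contrasts in each direction. They were selected by the limma test of the difference itself and were not tested again. On the negative side these were Arc (-1.80), Egr1 (-1.26), Nr4a1 (-1.16), Egr2 (-1.09), Sik1 (-0.94), Rasd1 (-0.92), Nr4a3 (-0.84), Irs2 (-0.80), Serinc2 (-0.80), Dusp5 (-0.78), Cdkn1a (-0.77), Trib2 (-0.75), Homer1 (-0.75), Bhlhe40 (-0.75) and Sdf2l1 (-0.71). On the positive side they were Olfr464 (1.02), Hunk (0.76), Pla2g4e (0.73), Rasl11b (0.68), 1700001L05Rik (0.65), Cstad (0.64), Edn1 (0.62), Nrep (0.61), Pcdh20 (0.60), 9430083A17Rik (0.60), Ighm (0.60), Rassf3 (0.59), 9330104G04Rik (0.59), Bace2 (0.58) and Asb11 (0.58). Nr4a1, Egr2, Olfr464, Cstad, Edn1, Pcdh20, 9430083A17Rik, Ighm and Rassf3 lost their calls without RUV.

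In the same 30 genes, 6 of 120 groups of 7 arrays held 1 array far from the others by Dixon's criterion, where chance alone gives about 1 in 20. Rasl11b was at 9.51 in SD replicate 1, above all other SD arrays, and Nr4a1 at 10.16 in the same array. Dusp5 was at 7.04 in RS6 replicate 4, the highest of its group, and Sdf2l1 at 6.71 in RS6 replicate 3, the lowest. Nr4a3 was at 6.97 in CC11 replicate 3 and 9330104G04Rik at 6.57 in CC11 replicate 6.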

How the results depend on the processing

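The count of calls rested most on the RUV factors. Against 338 calls in the full fit, there were 41 without RUV, 24 in the 4 groups alone without RUV, 137 in the 4 groups alone with 6 factors (127 shared with the 338), 212 with 3 factors and 667 with the factors subtracted beforehand, which leaves their degrees of freedom uncounted. There were 268 to 486 calls under the other alternatives that used RUV, and 76 with the replicate block and no RUV. When 1 array was left out there were 269 to 349, with 198 of the 338 called in all 28 such fits. Without RUV the recovery effect gave 0 calls in limma (3477 at an unadjusted p under 0.05) in place of 49, the change between controls 6 in place of 87, the 3 h effect 5 in place of 56, the 2 h effect 5 in place of 98, and the gene lists 11 in place of 50. The cause was not tested.

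The protocol was repeated on separate days with 1 mouse per time point, but no source used here says that a replicate number marks a day, so the numbers were not taken to pair the mice. The deviations of 9 of 42 same-numbered pairs correlated above 0.1 (highest 0.59), 8 of 28 arrays correlated best with their own number, and 4 of the 5 arrays that stood apart were numbered 1. With the replicate block there were 423 calls (253 higher, 170 lower; 308 shared with the 338), 76 without RUV, and 79 for the recovery effect (41 shared with the 49). A second quantile normalization gave 179 higher and 201 lower calls. Of the named genes, only Arntl changed sign, being -0.01 in the full fit, 0.0011 with the replicate block, 0.0035 without the 5 arrays, and between -0.0255 and 0.0070 in fits without 1 array. Klf10, Fosl2, Spred3, Srsf2, Hdac9, Dusp16, Edn1, Nab2, Nr4a1, Slitrk2 and Ranbp2, whose calls were lost without any of 5 or more single arrays, kept their direction in all 28 fits, with adjusted p of at most 0.0290.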
